A study of Mus musculus with 2 samples.

Results

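Gata2, Gata4 and Gata6 encode zinc finger transcription factors of the GATA family, which bind short DNA elements with a GATA core, and were chosen by their gene symbols: 3 of the 31053 genes in the count matrices. Their mRNAs were measured by droplet single-cell RNA sequencing in sorted liver endothelium of 1 sph/sph mouse and 1 sph/+ mouse. Both were adult C57BL/6 animals, and the first carried the sphinx allele of Gimap5, a missense allele of a GTPase of the immunity-associated family, on both chromosomes, while the second carried it on 1. The sort kept living (DAPI-) cells without the leukocyte antigen CD45 and with the endothelial antigen CD31, and each mouse gave 1 library made with the v3 chemistry of the 10x Genomics 3' kit. Neither genotype has a second animal, so no test between genotypes was made, and each difference is one between 2 libraries, in which the mouse, the library and the genotype cannot be told apart.

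Gata2 is expressed in most endothelium and in blood progenitors, where it is needed for vascular integrity and for lymphatic valves. Gata4 is known in the mouse liver as the factor that specifies the sinusoidal endothelium, the fenestrated lining of the liver capillaries, and its endothelial loss gives continuous capillaries there. Gata6 is known from heart, gut, biliary and mesothelial lineages and from some vascular endothelium. The proteins act with the FOG cofactors, encoded by Zfpm1 and Zfpm2, and share much of their DNA recognition. In GRCm38.p6, Gata2 (ENSMUSG00000015053) lies on chromosome 6 from 88193891 to 88207032. Gata4 (ENSMUSG00000021944) lies on chromosome 14 from 63198914 to 63271712, and Gata6 (ENSMUSG00000005836) on chromosome 18 from 11052510 to 11085636. GENCODE vM21 places 1 antisense gene over Gata6 and 0 over the other members, so reads of Gata6 and that gene cannot be separated unless strand was used in counting, which the sources used here do not give.

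The sph/sph library held 16386 barcodes with 68983780 unique molecular identifiers (UMIs, counted molecules) and the sph/+ library 13136 barcodes with 64460283 UMIs. After filtering, 11331 sph/sph cells with a median of 3888 UMIs and 10967 sph/+ cells with a median of 4418 UMIs were kept. The libraries shared 17 barcode sequences among kept cells. Endothelial-like cells numbered 10740 in sph/sph and 10047 in sph/+, and they fell into almost separate classes. Cells like liver sinusoidal endothelium (LSEC-like) numbered 2 in sph/sph and 9522 in sph/+, while continuous vascular-like cells numbered 7794 and 20, and lymphatic-like cells 1157 and 8. An unnamed sph/sph cluster of 682 cells, led by Sprr2b, carried 9 LSEC markers and 8 continuous ones. The LSEC-like name needed at least 9 LSEC and fewer than 8 continuous markers, so this cluster lay at its limit. Central vein-like cells, named from Rspo3, Wnt9b and other markers, numbered 229 in sph/sph and 40 in sph/+. Among endothelial-like cells they were the only named resting class with at least 40 cells of each library. The class was not alike in these markers: Rspo3 was at 1872 CPM (counts per 1e+06 UMIs) in sph/sph and 4048 CPM in sph/+, and Wnt9b at 541 and 707 CPM. Smaller clusters are called here by a leading gene, and the 3 GATA genes were kept out of the genes that built the clusters.

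Over all endothelial-like cells, Gata4 was lower in sph/sph, Gata6 was higher, and Gata2 differed little. Gata4 was at 31.0 counts per 1e+06 UMIs (CPM) in sph/sph (1597 UMIs) and 273 CPM in sph/+ (12632 UMIs), 8.80-fold lower, with a 95% interval of 8.35 to 9.27 that covers counting error only. Gata6 was at 32.4 CPM in sph/sph (1668 UMIs) and 1.58 CPM in sph/+ (73 UMIs), 20.5-fold higher (16.2 to 26.3). Gata2 was at 69.7 CPM in sph/sph (3589 UMIs) and 52.4 CPM in sph/+ (2425 UMIs), a ratio of 1.33 (1.26 to 1.40). The log2 ratios of sph/sph over sph/+, with 1 CPM added to both, were -3.10, 3.70 and 0.41. Of 7464 measured genes (20 CPM or more in either library), 11% passed a 2-fold difference upward, Gata6 among them, and 10.6% passed it downward, Gata4 among them. With so few cells of a class shared, these totals mix the level in a cell with the kinds of cell in each library, and the clusters below give them apart.

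**Figure D1:**
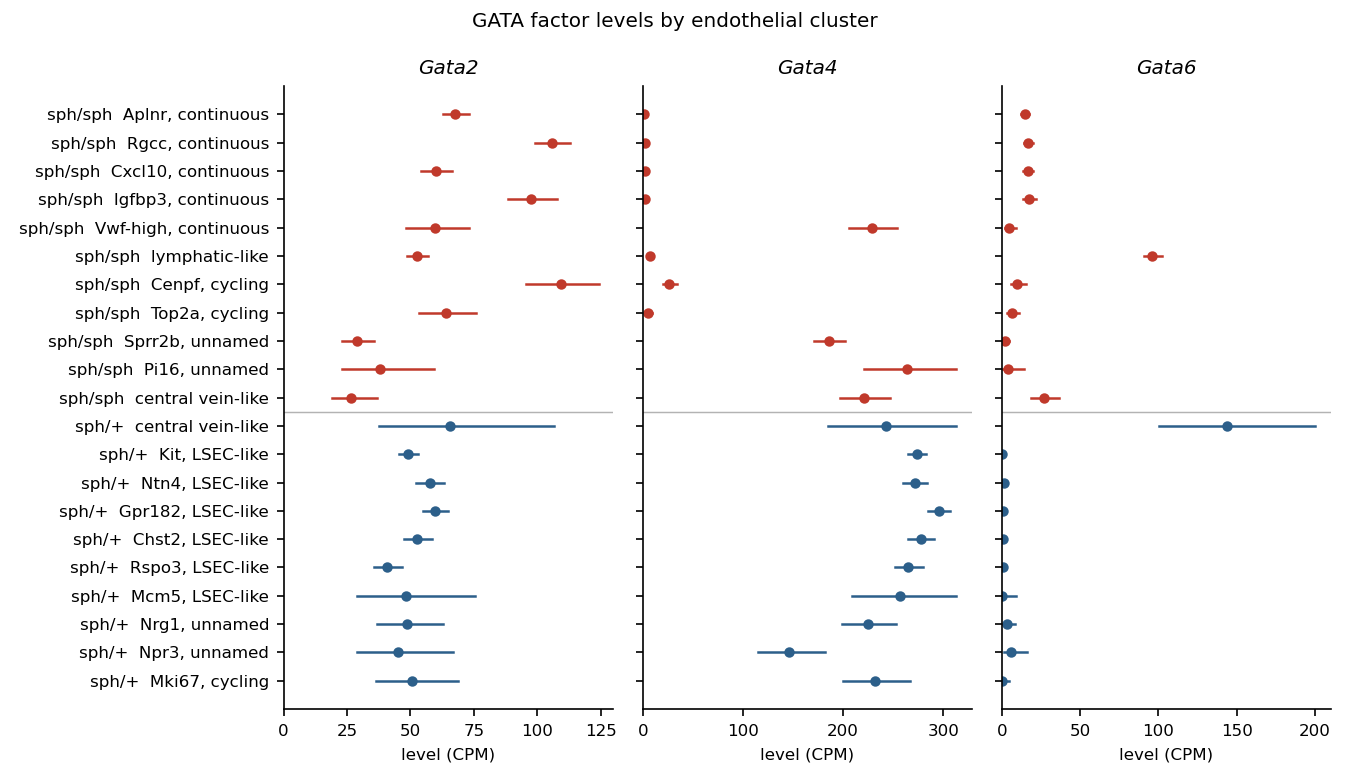
Level of each GATA factor (CPM, linear axis) in endothelial clusters, sph/sph in red above and sph/+ in blue below. Points are summed counts of 1 cluster of 1 library and lines are exact 95% Poisson intervals. Gata4 lies near 0 in the sph/sph continuous clusters led by Aplnr, Rgcc, Cxcl10 and Igfbp3 and within the range of the sph/+ clusters in 4 other sph/sph clusters, and Gata6 is highest in sph/sph lymphatic-like and sph/+ central vein-like cells.

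Gata4 split most of the sph/sph endothelium into clusters with almost none and clusters at 186 to 264 CPM, much nearer to sph/+ sinusoidal cells. The lymphatic-like and cycling sph/sph clusters, given below, lay between. In the 4 continuous vascular-like clusters led by Aplnr, Rgcc, Cxcl10 and Igfbp3 it was at 1.73, 2.33, 2.51 and 1.92 CPM, 61 UMIs in 7525 cells together. In 4 other sph/sph clusters it was at 186 CPM (171 to 202; 682 cells led by Sprr2b), 221 CPM (197 to 247; the 229 central vein-like cells), 264 CPM (221 to 313; 110 cells led by Sprr2b and Pi16) and 229 CPM (206 to 254; 269 cells led by Vwf). The last of these was named continuous vascular-like and also carried arterial markers. Those 4 clusters stood far above the 4 continuous ones, with no interval of one set reaching the other.

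The sph/+ LSEC-like clusters of over 1000 cells lay close together, from 265 CPM (252 to 280) in the Rspo3 cluster to 295 CPM (285 to 306) in the Gpr182 cluster. The unnamed sph/+ clusters were at 225 CPM (199 to 253; Nrg1) and 146 CPM (115 to 182; Npr3), so the Npr3 cluster of 97 cells lay below each of the LSEC-like clusters of over 1000 cells. The interval of the sph/sph Sprr2b cluster, given above, also lay below those of these LSEC-like clusters. Between the classes that make up most of each library, continuous vascular-like sph/sph cells without the Vwf-high cluster were at 2.09 CPM and LSEC-like sph/+ cells at 278 CPM, 133-fold lower in sph/sph (103 to 174). Where both libraries had a class in common, the levels lay closer: in the central vein-like class Gata4 was at 221 CPM in sph/sph and 242 CPM in sph/+, a ratio of 0.91 (0.69 to 1.22), an interval that holds 1. The cells of this class differed between the libraries in Rspo3 and Wnt9b, as given above. Under 3 other cell filters, which changed its cells, the class gave ratios of 0.602 (0.508 to 0.718; without doublet removal), 0.779 (0.618 to 0.988; looser filter) and 0.772 (0.620 to 0.967; mitochondrial limit of 25%), whose intervals lie below 1, so a moderately lower level in sph/sph depends on the filter.

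The Vwf-high cluster went the other way. Gata4 there was at 229 CPM in 269 sph/sph cells and 99.6 CPM in 16 sph/+ cells, a ratio of 2.30 (1.11 to 5.77) that rests on 7 sph/+ UMIs. Of all sph/sph Gata4 UMIs, 44.2% came from the unnamed clusters, which held 7.39% of the endothelial-like cells, and 19.7% from the central vein-like cells, which held 2.13%. The continuous cells without the Vwf-high cluster held 70.1% of the cells and 3.82% of the Gata4 UMIs. Gata4 in cycling cells was at 26.6 and 5.38 CPM in the sph/sph clusters led by Cenpf and Top2a and at 232 CPM in the sph/+ cluster led by Mki67.

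Gata4 was also set against Stab2, the hyaluronan scavenger receptor of sinusoidal cells. In sph/sph central vein-like cells there were 22.4 Gata4 UMIs per Stab2 UMI (13.2 to 41.5), from 314 Gata4 and 14 Stab2 UMIs, and in the Vwf-high cluster 6.69 (5.01 to 9.07). These clusters thus carried Gata4 with little Stab2, in a ratio above the 0.789 of all kept sph/sph cells (0.739 to 0.842) and the 0.197 of sph/+ LSEC-like cells (0.193 to 0.201). Some sph/+ cells also lay above the LSEC-like ones. The sph/+ central vein-like cells held 1.90 (1.21 to 3.04), the Npr3 cluster 1.81 (1.23 to 2.70) and the Nrg1 cluster 0.927 (0.782 to 1.10). The Sprr2b cluster held 0.601 (0.541 to 0.667), nearer to that of all kept sph/sph cells, with Stab2 at 309 CPM, against 1410 CPM in sph/+ LSEC-like cells. Sph/sph lymphatic-like cells held 0.117 (0.0925 to 0.146), and Gata4 there was at 7.61 CPM. In sph/+, clusters marked by Kupffer, stellate, cholangiocyte and hepatocyte genes held 0.191, 0.211, 0.208 and 0.202 Gata4 UMIs per Stab2 UMI. The Kupffer- and stellate-marked clusters also carried 12 LSEC markers, and Maf, a transcription factor of sinusoidal cells, was at 2719 CPM in Kupffer-marked and 2473 CPM in stellate-marked sph/+ cells, against 2748 CPM in LSEC-like ones. Whether their Gata4 came from sinusoidal cells in the same droplets was not tested.

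Gata6 was highest in the lymphatic-like cells of sph/sph, at 96.2 CPM (90.6 to 102), and 66.7% of all sph/sph Gata6 UMIs came from these 1157 cells, 10.8% of the endothelial-like cells. Lymphatic-like cells were also the deepest class, with a median of 9747 UMIs, a difference that CPM divides out. The 4 main continuous clusters had overlapping intervals, at 14.6, 16.8, 16.6 and 17.3 CPM. A cluster of 118 hepatocyte-marked sph/sph cells with few endothelial markers was at 11.4 CPM (2.36 to 33.4; 3 UMIs), an interval that takes in those of the continuous clusters. It was lower in the Vwf-high cluster, at 4.45 CPM (1.79 to 9.16), and in the Sprr2b cluster, at 2.27 CPM (0.913 to 4.68). The clusters with much Gata4 and the clusters with Gata6 were thus largely different ones, and the central vein-like class was the exception. For comparison, the 8 sph/+ lymphatic-like cells had 0 Gata6 UMIs, which allows up to 93.3 CPM, so lymphatic-like cells could not be compared.

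In sph/+ the LSEC-like clusters of over 1000 cells held between 0.369 and 1.45 CPM of Gata6, 31 UMIs in 9522 cells over the whole class. The 40 central vein-like cells held 35 of the 73 Gata6 UMIs of the sph/+ endothelium, 47.9% of them in 0.398% of the cells. Central vein-like cells were at 26.7 CPM in sph/sph (18.9 to 36.7; 38 UMIs in 229 cells) and 144 CPM in sph/+ (100.2 to 200.04), 5.38-fold lower in sph/sph (3.30 to 8.75). LSEC-like sph/+ cells were at 0.718 CPM (0.488 to 1.02). Over 7677 genes measured in this class, 13.9% were at least 2-fold lower and 14.9% at least 2-fold higher in sph/sph.

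The direction of Gata6 in central vein-like cells was therefore opposite to that over all endothelial-like cells. The class was redrawn under 3 other cell filters, and the ratio of sph/sph to sph/+ was 0.109 (1155 sph/sph and 86 sph/+ cells, without doublet removal), 0.406 (154 and 69 cells, looser filter) and 0.298 (260 and 76 cells, mitochondrial limit of 25%), against 0.186 here (229 and 40 cells). Without doublet removal the class took in many more sph/sph cells and was not the same class. It stayed below 1 in these 4, while its size moved by over 1.5 times. No cluster took this name at the lower clustering resolution. Lymphatic transcripts were scarce in these cells: Prox1, the lymphatic master regulator, was at 7.74 CPM in sph/sph and 12.3 CPM in sph/+, against 479 CPM in sph/sph lymphatic-like cells, and Mmrn1 at 2.81 CPM in sph/sph and 0 UMIs in sph/+. The biliary marker Epcam had 0 UMIs in the class in both libraries, and the mesothelial marker Msln likewise. Albumin, a hepatocyte transcript, was at 17.6 CPM in sph/sph and 226 CPM in sph/+, and its part in the result was not tested.

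Gata6 was also found in clusters with markers of other cell types, which carried 12 LSEC markers as well. In sph/+ it was at 102 CPM (88.6 to 116) in 172 cholangiocyte-marked cells and at 214 CPM (160 to 281) in 18 cells with fibroblast and mesothelial markers. In those 18 cells Gata5, another GATA factor of gut and mesothelium, had 15 UMIs. Over all kept cells, these included, Gata6 was at 31.7 CPM in sph/sph and 6.62 CPM in sph/+, a log2 ratio of 2.10.

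Gata2 was present in every endothelial cluster of over 100 cells and varied less than the other members. In sph/sph it was highest in the cycling cluster led by Cenpf, at 109 CPM (95.7 to 124), in the Rgcc cluster, at 106 CPM (99.03 to 113), and in the Igfbp3 cluster, at 97.6 CPM (88.4 to 108), whose intervals overlapped. The Aplnr, Top2a, Cxcl10 and Vwf-high clusters followed at 67.7, 64.1, 60.04 and 59.7 CPM, also with overlapping intervals. It was at 52.6 CPM (48.5 to 57.0) in lymphatic-like cells. The lowest sph/sph levels were in 3 of the 4 clusters with much Gata4, all but the Vwf-high one: 28.9 CPM (23.2 to 35.5) in the Sprr2b cluster, 26.7 CPM (18.9 to 36.7) in central vein-like cells and 37.9 CPM (22.8 to 59.2) in the Pi16 cluster.

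In sph/+ LSEC-like clusters of over 1000 cells Gata2 ranged from 40.8 CPM (35.6 to 46.6; Rspo3 cluster) to 59.7 CPM (54.96 to 64.8; Gpr182 cluster), a narrower span than in sph/sph. Continuous vascular-like sph/sph cells without the Vwf-high cluster were at 81.6 CPM and LSEC-like sph/+ cells at 52.5 CPM, a ratio of 1.56 (1.47 to 1.65). The Sprr2b cluster of sph/sph, which carried Gata4 and Stab2, was on the other side, with a ratio to sph/+ LSEC-like cells of 0.55 (0.44 to 0.68). In central vein-like cells Gata2 was at 26.7 CPM in sph/sph and 65.8 CPM in sph/+ (38 and 16 UMIs), a ratio of 0.41 (0.22 to 0.78). That difference was not stable: the looser cell filter gave 1.03 (0.45 to 2.64), with 22.8 CPM in sph/sph and 22.2 CPM in sph/+.

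Per cell the factors were sparse. Each cell was thinned to 2000 UMIs to equalise depth, which left 9830 sph/sph and 9632 sph/+ endothelial-like cells and dropped 910 and 415 shallower ones. A Gata4 UMI was then seen in 4.55% of sph/sph cells (4.14 to 4.98) and 40.5% of sph/+ cells (39.5 to 41.5), against 8.06% and 62.7% unthinned. Gata6 was seen in 4.49% of sph/sph cells and 0.228% of sph/+ cells, against 10.1% and 0.547% unthinned. Gata2 was seen in 13.4% of sph/sph cells and 9.99% of sph/+ cells, against 26.1% and 20.7% unthinned. The order between the libraries was the same at both depths for each of the 3 genes.

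Within classes, thinned Gata4 was seen in 36.2% of sph/sph central vein-like cells (29.9 to 42.9), 45.9% of sph/+ central vein-like cells (29.5 to 63.1) and 41.0% of sph/+ LSEC-like cells. Erythroid or leukocyte clusters had been planned as the background for Gata4 and Gata6, and hepatocyte ones for Gata2 only. The erythroid-marked sph/sph cells carried 11 pan-endothelial and 12 continuous markers, and of 104 such cells 3.85% had Gata4 and 4.81% Gata6. The nearest to a class without the factors was the cluster of 118 hepatocyte-marked sph/sph cells, in which 2 of the pan-endothelial markers and 0 of the continuous ones were detected. Of its 45 thinned cells, 0 had a Gata4 UMI (up to 7.87%), 2.22% a Gata6 UMI (0.0562 to 11.8) and 4.44% a Gata2 UMI (0.543 to 15.1), with a median depth of 1778 UMIs before thinning, against 3906 in sph/sph endothelial-like cells. The Gata4 shares of continuous cells without the Vwf-high cluster, 0.370%, and of lymphatic-like cells, 1.40%, lay within that interval and were not told apart from background. Gata6 in 3.12% of those continuous cells (2.72 to 3.56) was not told apart from it either, while 18.2% of lymphatic-like cells (15.96 to 20.5) lay above it. The Sprr2b cluster of sph/sph gave a lower Gata6 share, 0.164% of 609 thinned cells (0.00416 to 0.911), and the share of the continuous cells lay above that interval. The Gata2 share of those continuous cells, 14.6% (13.7 to 15.4), overlapped the interval of these few cells. By level Gata2 was higher, at 81.6 CPM (78.4 to 84.97) in the continuous cells, against 26.7 CPM (10.7 to 54.9; 7 UMIs) in the hepatocyte-marked cluster.

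**Figure D2:**
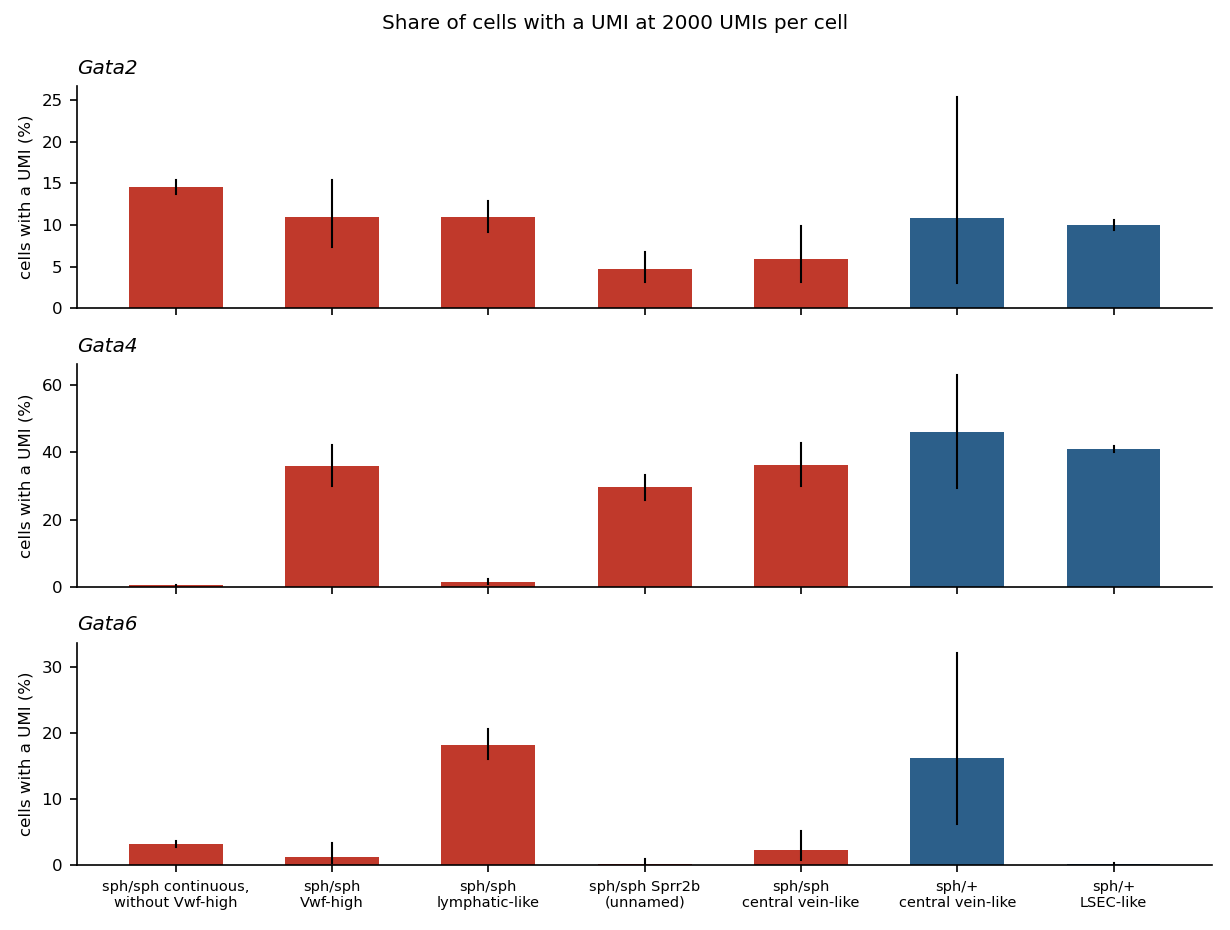
Share of cells with at least 1 UMI of each factor after thinning to 2000 UMIs per cell (bars from 0, percent), sph/sph classes in red on the left and sph/+ classes in blue on the right. Black lines are exact 95% binomial intervals. Gata4 is seen in 0.370% of sph/sph continuous cells without the Vwf-high cluster and in 41.0% of sph/+ LSEC-like cells.

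Most positive cells held a single UMI, and Gata4 gave the highest counts. At 2000 UMIs, 3743 of the 9129 sph/+ LSEC-like cells had Gata4, 2677 of them 1 UMI, 811 of them 2 and 255 of them 3 or more, up to 6. In the Vwf-high sph/sph cluster 11 of 256 cells had 3 or more Gata4 UMIs, up to 5. In continuous sph/sph cells without that cluster, 25 of 6759 cells had Gata4 and 0 had more than 1 UMI. For Gata6, 23 of 1146 sph/sph lymphatic-like cells, 2.01%, had at least 2 UMIs, and for Gata2 the Rgcc cluster led with 2.58% of 2135 cells.

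Gata4 and Gata6 were seen together in few sph/sph cells. At 2000 UMIs 6 sph/sph cells held both, against 20.1 expected from the product of the shares, a ratio of 0.30, and all 6 were lymphatic-like. Within the lymphatic-like class there were 6 cells against 2.904 by the product, a ratio of 2.07. The interval of that share, 0.192% to 1.14%, holds the 0.253% of the product, so no direction was detectable within the class. The pooled ratio mixes classes that hold different factors. In sph/+ 9 cells held both, against 8.91 by the product. Of those 9 cells, 3 were central vein-like, where 6 of 37 cells had Gata6 and 17 had Gata4. In the 80 Gata4-positive and 5 Gata6-positive cells of the sph/sph central vein-like class, 0 held both, against 1.81 by the product, so no difference was detectable at this number of cells.

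Gata2 and Gata4 were seen together in 29 sph/sph cells, against 59.8 by the product, a ratio of 0.49, and in 403 sph/+ cells, against 390 by the product, a ratio of 1.03. Within sph/sph clusters the ratio was 0.58 in the Sprr2b cluster (5 cells), 0.85 in central vein-like cells (4 cells) and 1.19 in the Vwf-high cluster (12 cells). Gata2 and Gata6 were seen together in 64 sph/sph cells, against 58.9 by the product, and in 3 sph/+ cells, against 2.20. Only 1 cell in each library held all 3 factors, and 78.6% of sph/sph cells and 53.6% of sph/+ cells held none at this depth. Without thinning the sph/sph ratios were 0.82 for Gata4 with Gata6 and 0.83 for Gata2 with Gata4.

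**Figure D3:**
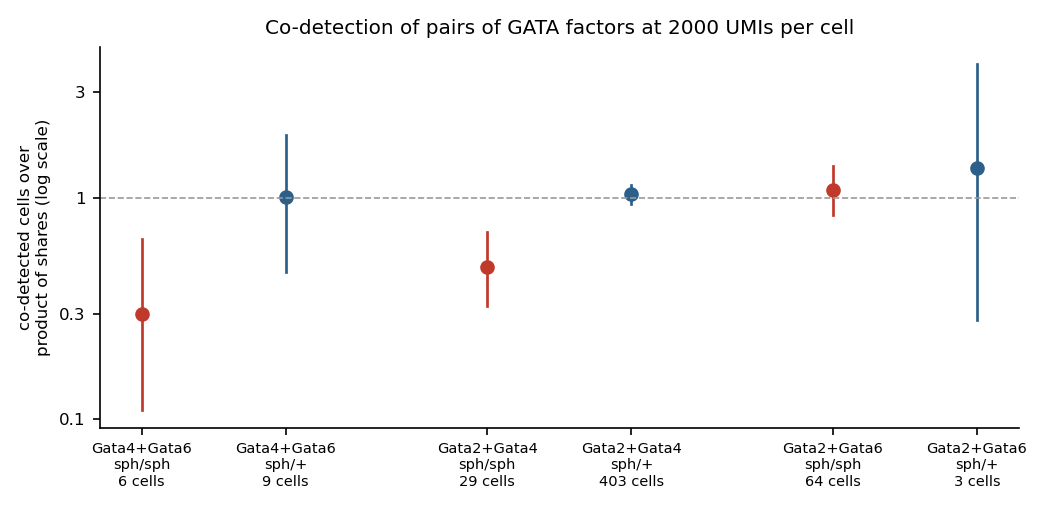
Number of cells with a UMI of both factors over the number given by the product of the 2 shares (log scale), sph/sph in red left of sph/+ in blue for each pair, at 2000 UMIs per cell. Lines are exact 95% binomial intervals of the observed share over the same product, and the dashed line marks 1. The sph/sph values for Gata4 with Gata6 (0.30) and Gata2 with Gata4 (0.49) lie below the line.

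Marker genes of the classes were also set against the factors. Of the 447 thinned sph/sph cells with Gata4, 93 also had Stab2, 20.8% of them, against 4.45% of all thinned sph/sph endothelial-like cells. In sph/+ Stab2 was seen in 87.8% of the 3901 cells with Gata4, against 87.4% of all. Cells with both were 4.68 times the product of the shares in sph/sph, which pools classes, and 1.005 times in sph/+. Cd34, a continuous endothelial sialomucin, was seen in 45.2% of the sph/sph Gata4 cells, against 70.6% of all thinned sph/sph endothelial-like cells. It was seen in 4.15% of the sph/+ Gata4 cells, against 4.54% of all thinned sph/+ ones. Prox1 was seen in 30.2% of the 441 sph/sph cells with Gata6, against 7.23% of all thinned sph/sph endothelial-like cells. Of the 133 cells with both, 132 were lymphatic-like, a class that Prox1 helped to name. Within that class the product of the shares gave 122 cells, a ratio of 1.08. Of the 211 Gata6 cells among continuous cells without the Vwf-high cluster, 0 had Prox1 at this depth. The product there was 0.468 cells and a count of 0 allows up to 3, so no difference was detectable.

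The FOG cofactors lined up with different members. Zfpm1, which encodes FOG1, was at 83.3 CPM in sph/sph and 95.6 CPM in sph/+ over all endothelial-like cells. In sph/sph it was highest in the clusters with Gata4, at 288 CPM (270 to 308) in the Sprr2b cluster and 243 CPM (218 to 270) in central vein-like cells, and 132 CPM (89.95 to 186) in sph/+ central vein-like cells. The Sprr2b cluster was 3.005-fold higher (2.79 to 3.23) than sph/+ LSEC-like cells, which held 95.9 CPM of Zfpm1 and more Gata4. Zfpm2, which encodes FOG2, was at 19.7 CPM in sph/sph and 13.8 CPM in sph/+, and at 58.8 CPM (54.4 to 63.4) in sph/sph lymphatic-like cells, the class with the most Gata6. Across the 11 sph/sph endothelial clusters of at least 50 cells, Pearson's r of log2(CPM + 10) was 0.88 for Gata4 with Zfpm1 and 0.83 for Gata6 with Zfpm2, and -0.71 for Gata2 with Gata4. Across the 8 sph/+ clusters it was 0.60 for Gata4 with Zfpm1 and -0.34 for Gata6 with Zfpm2. The clusters of a library share cells of 1 mouse, 1 depth and the genes that parted them, so these values are descriptions.

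The same measure ranked all 6461 genes with at least 20 CPM in sph/sph. Nearest to Gata4 were Ehd3, an endocytic recycling ATPase of sinusoidal cells (0.989), Bmp2, the iron-regulating ligand (0.978), the lectin Clec4g (0.976), the secreted matrix protein gene Ccdc80 (0.975) and Cyp26b1, which clears retinoic acid (0.972). Ehd3 was at 1081, 1116, 2358 and 1336 CPM in the Sprr2b, central vein-like, Pi16 and Vwf-high clusters, and between 7.53 and 15.6 CPM in the 4 main continuous clusters. Across 9830 thinned sph/sph cells Ehd3 also had the highest correlation with Gata4 of all ranked genes, 0.46, and all 5 genes were within the first 50. Among the genes farthest from Gata4 were Ephb1 (-0.969), an ephrin receptor, and Fam241a (-0.967).

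**Figure D4:**
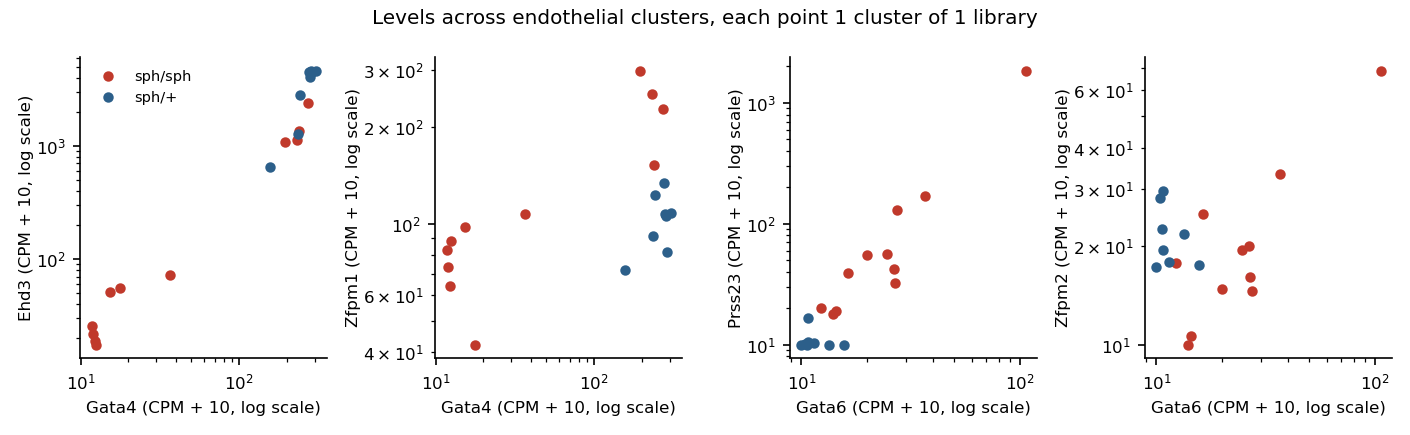
Level of 4 genes against Gata4 or Gata6 across endothelial clusters of at least 50 cells, both axes as CPM + 10 on a log scale, sph/sph clusters in red and sph/+ clusters in blue, each point 1 cluster. Ehd3 follows Gata4 through the sph/sph clusters (r 0.989) and Prss23 follows Gata6 (r 0.951), with the lymphatic-like cluster at the far right of both Gata6 panels.

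In sph/+, where Gata4 ranged from 146 to 295 CPM over the clusters, its nearest genes were Dnase1l3, a secreted DNase (0.993), Tgfbr3 (0.992), Strn (0.992), Pacs2 (0.991) and Nr2f1 (0.990). None of these 5 was among the 5 of sph/sph, each had its lowest level in the Npr3 cluster, where Gata4 was lowest, and across 9632 thinned cells the highest r of any ranked gene with Gata4 was 0.10. Farthest were Thap11 (-0.986), Rbmxl1 (-0.981) and Yif1a (-0.980). Nearest to Gata6 in sph/sph were the serine protease gene Prss23 (0.951), Aebp1 (0.9304), Bcap31 (0.917), the neuropeptide gene Nmb (0.917) and P3h4 (0.913), all highest in the lymphatic-like cluster, with Prss23 at 1834 CPM. Across cells 1 of these 5 genes stayed among the first 5 and 2 among the first 50. Farthest were Dennd5b (-0.930), Gcn1l1 (-0.927) and Rapgef1 (-0.915). Gata6 was under 5 CPM in sph/+ and was not ranked there.

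Nearest to Gata2 in sph/sph were the chaperone gene Dnaja1 (0.944), Tm9sf3 (0.9301), H2-M3 (0.918), the caveolin gene Cav2 (0.915) and the retinol carrier gene Rbp7 (0.913), with Akap13 (-0.955), Fnbp1 (-0.936) and Ap2a2 (-0.922) farthest. In sph/+ they were Atrnl1 (0.945), Plk2 (0.936), Tnks2 (0.915), Thap12 (0.901) and Azi2 (0.896), with Tmem176b (-0.937), Tmem176a (-0.911) and Yipf4 (-0.906) farthest. The Gata2 lists rest on the clusters alone: across cells 0 of the 5 genes stayed among the first 5 in either library, and the highest r with Gata2 was 0.08 in sph/sph and 0.04 in sph/+.

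Promoter windows of the genes nearest to Gata4 were read from RefSeq, since these genes moved together with a DNA-binding factor. A window runs from 250 bases before to 50 bases after an annotated start. The word AGATAA, the word AGATAG, the word TGATAA and the word TGATAG were searched on both strands, and 29.8% of all 32851 windows held at least 1. Of the 5 sph/sph genes nearest to Gata4, 3 had a window and 2 of these, Ehd3 and Clec4g, held 1 word each, while Cyp26b1 held 0. Of the genes nearest to Gata4 in sph/+, 0 of 4 windows held a word, of those nearest to Gata6 in sph/sph 1 of 10, and of those nearest to Gata2 0 of 7 in sph/sph and 0 of 5 in sph/+. Both windows of Gata2 held 0. Ehd3 (GRCm38.p6, chr17:73804591-73804890, plus strand, word at position -106 from the start) and Clec4g (chr8:3720602-3720901, minus strand, word at -62) are printed 5′ to 3′, with the word in capitals. A match is a description of these letters, not evidence of binding.
Ehd3: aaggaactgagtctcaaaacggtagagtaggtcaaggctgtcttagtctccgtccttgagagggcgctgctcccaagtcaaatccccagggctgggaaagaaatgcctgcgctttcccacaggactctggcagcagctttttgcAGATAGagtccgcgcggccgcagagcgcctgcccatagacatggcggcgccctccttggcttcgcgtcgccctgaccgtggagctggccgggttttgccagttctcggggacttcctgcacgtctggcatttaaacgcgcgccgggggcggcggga
Clec4g: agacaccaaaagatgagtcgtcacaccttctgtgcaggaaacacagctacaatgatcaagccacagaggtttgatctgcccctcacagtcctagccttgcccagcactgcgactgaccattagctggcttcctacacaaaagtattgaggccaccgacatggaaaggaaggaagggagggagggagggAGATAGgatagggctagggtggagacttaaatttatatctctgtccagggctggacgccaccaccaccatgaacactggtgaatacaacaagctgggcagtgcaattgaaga

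Gene lists for the members, drawn from their known roles and set with earlier results of these data known, were counted over all endothelial-like cells at the same 2-fold limit, which 11% of all measured genes passed upward and 10.6% downward, with a median log2 ratio of -0.07. Of 19 measured sinusoidal genes linked to Gata4, 0 were higher and 15 were lower, with a median of -4.68. The lowest were Fcgr2b, an inhibitory Fc receptor (-9.30), Dnase1l3 (-7.22), the mannose receptor Mrc1 (-5.99) and Clec4g (-5.98). Wnt9b and Lyve1 lay within 2-fold, at 0.12 and 0.51. The next list held 20 continuous genes thought to be held down by Gata4 in the mouse liver, which was not tested here. Of these 20 genes, 13 were higher and 0 lower, with a median of 1.96. They were led by Rgcc, a cell cycle regulator (8.04), the peptide ligand Apln (7.86), its receptor Aplnr (7.29) and Cd34 (4.56). Many genes of the sinusoidal and continuous lists were also markers that named the LSEC-like and continuous vascular-like classes. Each library held almost only 1 of these classes, so the directions of both lists are not separate from that naming and say nothing further about Gata4.

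The lists for the other members were mixed. Of 21 measured genes linked to Gata2, 7 were higher and 6 lower, with a median of 0.42: Prox1 (4.69) and Angpt2, a ligand of the Tie2 receptor (3.103), led upward, and the receptor genes Kit (-2.42) and Itga9 (-2.41) downward. Of 10 measured genes linked to Gata6, 5 were higher and 1 lower, with a median of 1.12, which did not change with Cx3cl1 at its bound. The chemokine gene Cx3cl1 was at 60.1 CPM in sph/sph and 0 UMIs in sph/+, followed by Bmp4 (3.36), Angpt2 (3.103) and the endothelin gene Edn1 (2.38). Several genes stand on more than 1 list, so the lists are not separate evidence.

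Of 15 measured GATA cofactors and complex partners, 3 were higher and 1 lower, with a median of 0.42. Tbx3, a T-box factor, was at 56.4 CPM in sph/sph and 0.0864 CPM in sph/+. Lyl1, a bHLH factor that binds with GATA proteins, was at 2.12, Tcf3, its E-protein partner, at 1.38, and Ldb1, which bridges the complex, at -1.04. Of 28 other endothelial transcription factors, 8 were higher and 6 lower, with a median of -0.28, led by Meox1 (7.36), Tcf15 (6.44), Meox2 (6.11) and Hey1 (4.59). All 4 measured relatives with GATA-type zinc fingers lay within 2-fold: Gatad2b and Gatad2a, subunits of the NuRD complex, at -0.70 and 0.21, the repressor Trps1 at -0.54 and Gatad1 at -0.15. The other GATA factors were scarce in the endothelium: Gata3 had 86 UMIs in sph/sph and 5 in sph/+, with 46 of those 86 in lymphatic-like cells, Gata1, the erythroid factor, 4 and 0, and Gata5 0 and 0.

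**Figure D5:**
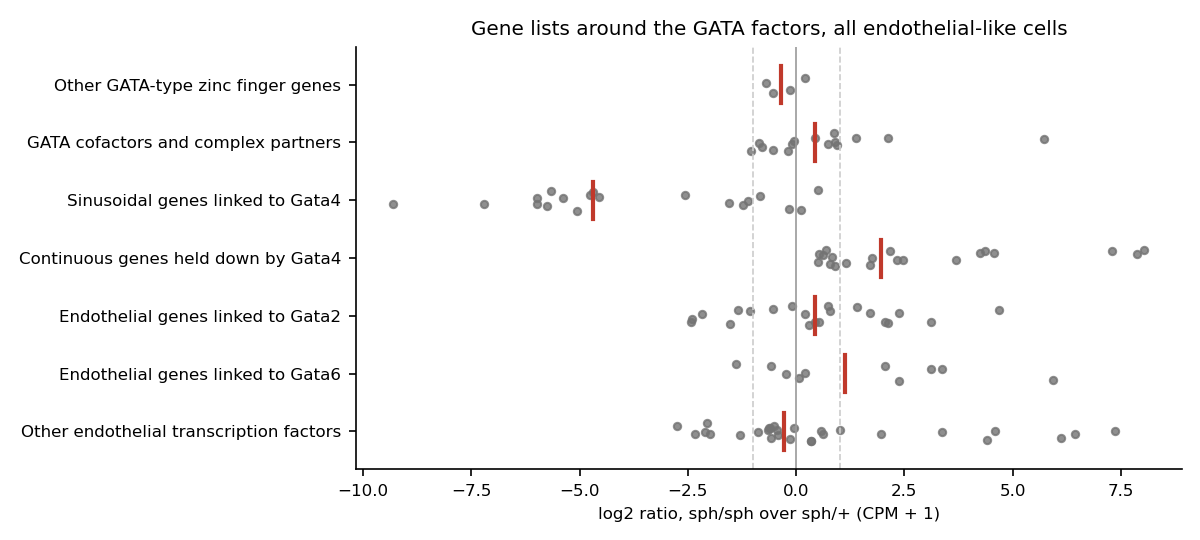
Log2 ratio of sph/sph over sph/+ (CPM + 1) for the measured genes of each list over all endothelial-like cells, 1 point per gene, with the list's median as a red bar and dashed lines at 2-fold. The sinusoidal list lies to the left (median -4.68) and the continuous list to the right (median 1.96), and the 4 other zinc finger genes lie within 2-fold. Many genes of the sinusoidal and continuous lists were also markers used to name the classes.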

How the data were processed

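The deposited values are raw UMI counts per gene and barcode, with no normalization. Cell Ranger 3.0 and the build mm10 are named in the submitters' processing notes, and per the file headers the matrices were written by software version 3.1.0. The annotation release is not given in the sources used here. Barcodes were kept with at least 500 genes, 1000 UMIs and at most 15% mitochondrial UMIs. Doublets were ranked with Scrublet in scanpy 1.11.5 and removed at 0.8% per 1000 barcodes, which took 13.5% of scored sph/sph and 10.9% of scored sph/+ barcodes. This ranked cut was used for every cell filter. The automatic threshold, not used, marked 0% here and 17.1% of sph/sph barcodes under the looser filter.

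Both libraries were clustered together without integration (2000 variable genes, 30 components, 15 neighbours, leidenalg 0.10.2 at resolution 1.0). Clusters with many LSEC and continuous markers were split once more at resolution 0.3, a step set, like the marker numbers, after the data were opened. Names came from marker lists, with a marker detected in 25% of a cluster's cells. Counts were summed per library and cluster and scaled to CPM. The measured floor was 20 CPM and log2 ratios had 1 CPM added. Intervals are exact 95% Poisson, Clopper-Pearson or, for ratios, binomial intervals and cover counting error only. A count of 0 allows 3 counts. The functions were tested on simulated data.

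The members and lists were chosen with earlier results of these data known. Named genes are the members, Gata1, Gata3, Gata5, Zfpm1 and Zfpm2, the 5 nearest and 3 farthest genes per factor and library, and up to 4 members per list with the largest absolute log2 ratio. A gene that this rule names is not reported here. Context genes (Stab2, Prox1, Epcam and the like), Lyve1 and Wnt9b were added after their values were seen. Promoters came from RefSeq tables.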

Additional observations from a re-analysis of the deposited data

How the results depend on the processing

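No paired analysis was possible because each genotype has 1 library, and no replicate could be left out. The cause of the changes below was not tested. With other doublet and cell filters, resolution 0.5, equal cell weights, 5 CPM added, and all kept cells or endothelial-like cells without lymphatic-like and cycling ones, the log2 ratio of sph/sph over sph/+ ran from -3.21 to -2.73 for Gata4, from 2.10 to 3.70 for Gata6 and from 0.37 to 0.56 for Gata2, with no change of direction, while comparisons within a class turned some directions. Beyond counting error, Gata6 moved to 2.10 over all kept cells, 3.57 without doublet removal, 3.61 with the looser cell filter, 2.58 without lymphatic-like and cycling cells, 3.33 with cells weighted equally, 3.66 at clustering resolution 0.5 and 2.51 with 5 CPM added. Gata4 moved to -2.73 without lymphatic-like and cycling cells and -2.95 with 5 CPM added, and Gata2 to 0.56 with cells weighted equally.

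Among settings chosen after the data were seen, a mitochondrial limit of 25% gave -2.95 for Gata4 and 3.70 for Gata6, and leaving out cells of over 3 times the median UMI count (524 in sph/sph, 57 in sph/+) gave -3.04 and 3.402. Within central vein-like cells the direction turned for Gata2 (-1.27) and Gata6 (-2.39), and Gata4 was at -0.13. Within the Vwf-high cluster Gata4 turned to 1.19 and Gata6 was at 2.45, where the 16 sph/+ cells had 0 Gata6 UMIs, so that its direction is not determined. Continuous vascular-like sph/sph cells without that cluster against LSEC-like sph/+ cells gave 0.63 for Gata2, -6.49 for Gata4 and 3.31 for Gata6.

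The number of genes at least 2-fold higher was 1364 with a floor of 5 CPM and 516 with a floor of 50 CPM, against 820, and 8 Gata6-linked genes were higher with a floor of 5 CPM, against 5. At 1000 UMIs per cell, and then unthinned, Gata2 was seen in 7.27% and 26.1% of sph/sph cells and 4.77% and 20.7% of sph/+ cells, Gata4 in 2.46% and 8.06% of sph/sph cells and 23.1% and 62.7% of sph/+ cells, and Gata6 in 2.35% and 10.1% of sph/sph cells and 0.0896% and 0.547% of sph/+ cells. Co-detection over the product in sph/sph was 0.82 unthinned and 0 within the continuous class for Gata4 with Gata6, and 0.83 in both settings for Gata2 with Gata4. The 0 within the continuous class stood against 3.57 cells by the product, a share that its interval holds. Without the Vwf-high cluster the product was 0.78 cells, so no difference was detectable. At 1000 UMIs it turned to 0.84 for Gata2 with Gata4 in sph/+ and to 0.76 for Gata2 with Gata6 in sph/sph. Of the 5 genes nearest to Gata4 in sph/sph, 4 and 3 stayed in the first 5 with 1 and 50 CPM added, and 3 across cells. The shared classes hold few sph/+ cells, which widens the intervals of their ratios.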
